A study of Mus musculus with 13 samples.

Results

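The genes described here encode the core of Polycomb repressive complex 2 (PRC2), the DNA methyltransferases with their partner Uhrf1, and 2 TET dioxygenases. The 10 members (Ezh1, Ezh2, Suz12, Eed, Dnmt1, Dnmt3a, Dnmt3b, Uhrf1, Tet1 and Tet2) were taken by symbol from the deposited RNA-seq table of 53465 genes, each symbol matched 1 gene, and all 10 passed the filter on low values. The table holds bulk polyA RNA from 3 ovaries of C57BL/6 mice, wild type (WT) and non-treated, and from 10 non-treated MP tumors. MP tumors are EPO-GEMM tumors, that is, tumors raised by electroporating plasmids into the ovary of C57BL/6 females aged 8 to 12 wk: a transposon carrying MYC, its Sleeping Beauty transposase, and Cas9 with an sgRNA against Trp53 (genotype Myc;p53-/-). Tumor RNA was collected at end point from whole tumor tissue, and each tumor arose in its host from cells edited there, so a tumor also holds unedited host cells. For WT ovaries the labels repeat the text on electroporation at 8 to 12 wk but give the genotype as WT and the treatment as non-treated, so whether that age applies to them is not clear. Samples were bulk tissue, in which fewer cells of a type and less RNA per cell cannot be told apart.

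PRC2 places methyl groups on lysine 27 of histone H3, a mark of silenced genes. Ezh2 and Ezh1 are its alternative catalytic subunits, Ezh2 being typical of dividing cells and Ezh1 of resting cells, and Suz12 and Eed hold the complex together. Dnmt1 copies CpG methylation to the new strand after replication, guided there by the hemimethylation reader Uhrf1, whereas Dnmt3a and Dnmt3b methylate unmarked DNA. Tet1 and Tet2 oxidize 5-methylcytosine, the first step of its removal.

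WT libraries held 31445004 to 64013840 reads worked back from the table and MP libraries 3892690 to 19906507. The fewest reads behind any value of a member was 34. Library names carry a number that is shared by all WT ovaries and MP tumors 1 to 3 (called the shared number here), with a further number for MP tumors 4 to 6 and another for MP tumors 7 to 10. In MP tumor 2, 10 genes took 55.1% of all TPM. Trp53, the targeted gene, averaged 83.7 ± 2.61 TPM (SD over 3 WT ovaries; TPM is a gene's share of a library's reads per length) and was at 4.30, 14.0 and 187 TPM (lowest, median, highest) in MP tumors. It lay below all WT ovaries in 9 tumors and above them in MP tumor 10, and the difference did not pass with limma (adjusted P = 0.0579), while limma-voom on reads called it lower. An RNA level does not read out small deletions and insertions.

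Ovarian marker lists separated tumors from ovaries. All 8 oocyte genes, all 6 granulosa cell genes and 4 of 5 theca and luteal genes fell in MP tumors, whose summed oocyte markers were 1.38 to 22.8 TPM against 308 to 458 TPM in WT ovaries, and 6 of the 8 oocyte genes were listed at 0 in at least 5 tumors. Proliferation genes moved the other way. Of 12, 5 rose and none fell, led by Cdk1, the mitotic kinase (log2 fold change 1.56), Birc5, survivin (1.56) and Ccnb1, cyclin B1 (1.65), with a summed level of 448 to 796 TPM in WT ovaries and 588 to 2809 TPM in MP tumors. The count of 5 was 11 on scaled TPM and by limma-voom, 3 within the shared number (where 1 was lower), 7 without MP tumors 1 to 3, and 0, 1 and 0 without WT ovary 1, 2 or 3. Without MP tumor 1, 7 or 8 it was 3, 3 and 2. Of the other tissue markers, 2 of 5 stromal, 2 of 4 endothelial and 2 of 6 epithelial genes fell, and none of 5 immune genes passed the test (limma; 2 lower at an unadjusted P under 0.05, and by limma-voom 1 lower). Summed epithelial markers were 276 to 303 TPM in WT ovaries and 8.09 to 1199 TPM in tumors. The part of these cell and cycle differences in the results below was not tested.

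None of the 10 members passed the test between MP tumors and WT ovaries on deposited TPM, where 16.8% of 17277 tested genes did, 2.51% higher and 14.3% lower in tumors (limma on log2(TPM + 1), adjusted P under 0.05). At an unadjusted P under 0.05 there was 1 member, Ezh1 (P = 0.0423). The median log2 fold change was -0.13 over the members and -0.58 over all tested genes, so that most genes were listed lower in tumors. Libraries were therefore also put on one scale by the median of gene ratios (scaled TPM), which set the median of all genes at -0.02. On scaled TPM 3 members rose in MP tumors, Ezh2, Dnmt3b and Uhrf1, where 7.47% of genes did so, and none fell, against 10.9%. A limma-voom fit on reads called 4 members higher, those 3 and Eed, where 16.0% of genes were called higher. Ezh2, Dnmt3b and Uhrf1 were also the 3 called higher after quantile normalization (11.0% of genes) and after removing each library's trend on gene length (10.4%). Without MP tumors 1 to 3, no member passed on TPM, where 18.2% of genes did.

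**Figure D1:**
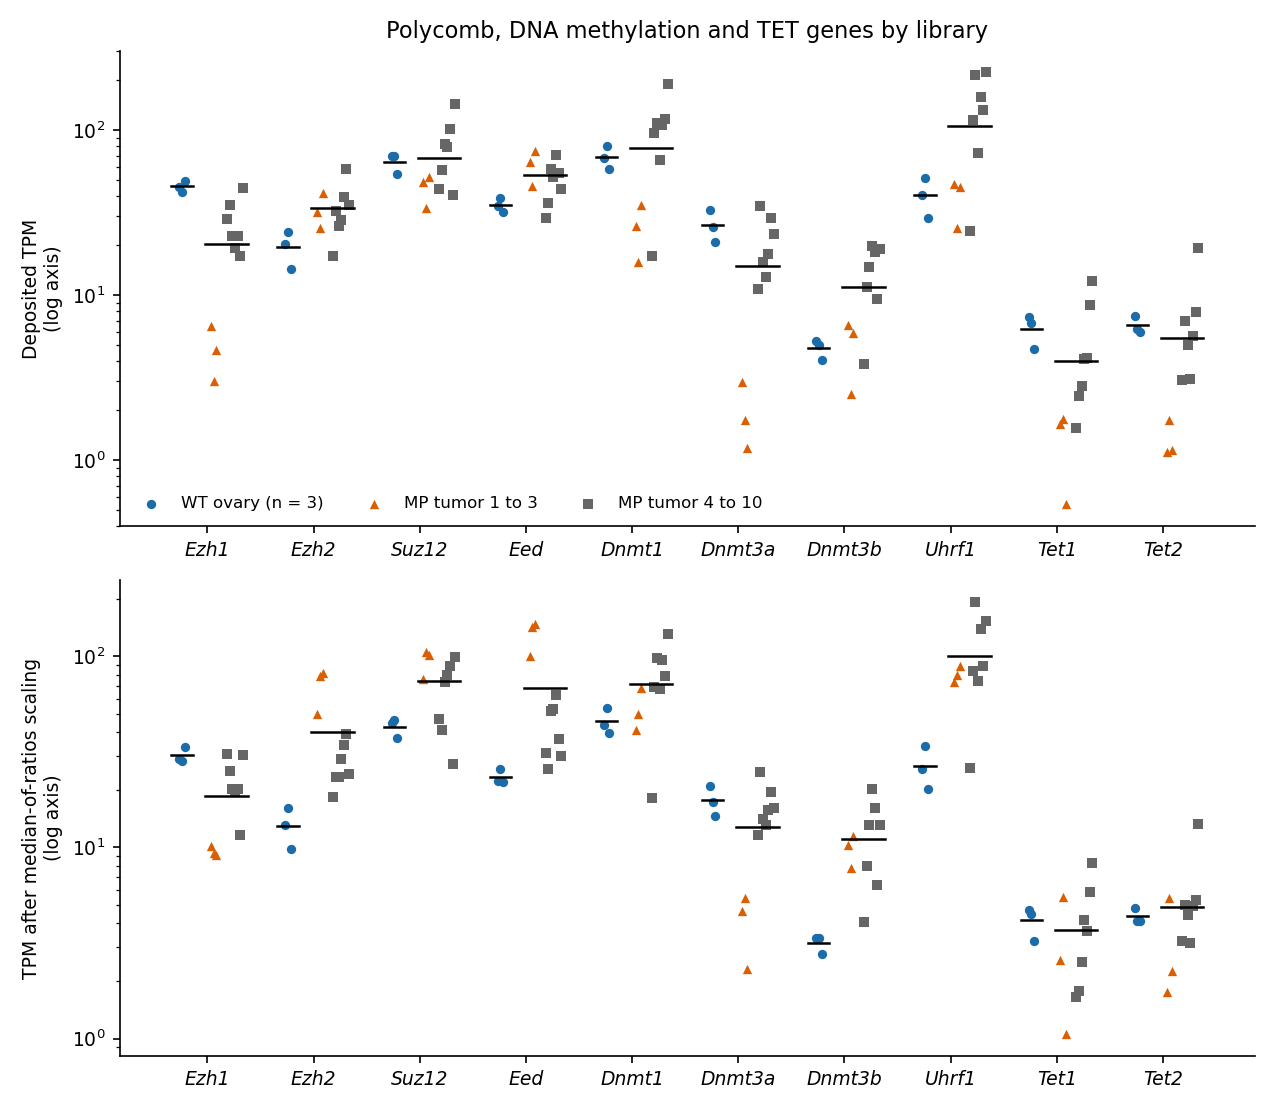
Level of each member in every library, as deposited TPM (top) and after median-of-ratios scaling (bottom), on log axes. Circles are the 3 WT ovaries, triangles MP tumors 1 to 3, squares MP tumors 4 to 10, and lines group means; for Ezh2, Eed and Dnmt3b all 10 tumors lie above all WT ovaries after scaling.

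Ezh2 (chr6:47530139-47595341, minus strand, GRCm38) was at 20.5, 24.0 and 14.3 TPM in WT ovaries 1 to 3. In MP tumors it was at 17.3 TPM at the lowest, 32.3 at the median and 58.4 at the highest. It exceeded all WT ovaries in 9 of 10 tumors, with MP tumor 4 inside the WT range. No member was free of overlap between groups on TPM, where 3.02% of genes lay wholly higher and 16.4% wholly lower in tumors. The log2 fold change was 0.72 ± 0.36 (SE, adjusted P = 0.180) on TPM and 1.41 ± 0.43 (adjusted P = 0.0357) on scaled TPM, a 2.65-fold rise. On scaled TPM each tumor lay above all WT ovaries, as for 9.63% of tested genes (10.6% lay wholly below).

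Ezh1 (chr11:101191115-101226463, minus strand), the other catalytic subunit, was at 45.5, 42.3 and 48.9 TPM in the 3 WT ovaries. Its tumor values were 3.00, 21.1 and 44.3 TPM (lowest, median, highest). All but MP tumor 10 were below every WT ovary. The log2 fold change was -1.47 ± 0.66 (adjusted P = 0.136) on TPM and -0.80 ± 0.39 (adjusted P = 0.167) on scaled TPM, neither past the test. Within the shared number alone Ezh1 was called lower, at -3.07 on TPM (limma, adjusted P = 0.000112), where 57.3% of genes were lower. On scaled TPM it was -1.57 there (limma, adjusted P = 0.000430), where 31.5% were lower.

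The scaffold gene Suz12 (chr11:79993106-80034123, plus strand) was at 69.7, 69.2 and 54.2 TPM in WT ovaries and at 33.7, 54.4 and 144 TPM in tumors. The groups overlapped in both directions, with 4 tumors above and 5 below all WT ovaries, and the log2 fold change was -0.05 ± 0.41 (adjusted P = 0.944). The other core subunit, Eed (chr7:89954654-89980983, minus strand), which binds methylated lysine 27, was at 34.6, 38.5 and 32.0 TPM in WT ovaries and at 29.3, 53.7 and 75.1 TPM in tumors. Of these, 8 tumors exceeded all WT ovaries and MP tumor 4 lay below them. Its log2 fold change was 0.54 ± 0.33 (adjusted P = 0.259) on TPM and 1.24 ± 0.51 (adjusted P = 0.101) on scaled TPM, where all 10 tumors lay above the WT ovaries.

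Promoters of both catalytic subunits are shown because their ratio differed between groups, as given later, and Ezh2 is a textbook E2F target. RefSeq promoter windows on GRCm38.p6, from 250 bases before to 50 after each start site, were matched for all 10 members and searched on both strands for 4 E2F-like words (TTTCCCGC, TTTGGCGC, TTTCGCGC and TTTGCCGC) and the E-box CACGTG bound by MYC and MAX. Ezh2 held 1 E2F-like word, beginning at base 4 of the transcript, and Ezh1 none, and neither held the E-box. Capitals mark E2F-like words, and the Ezh2 window holds 31 CpGs and the Ezh1 window 23, where the median over all promoters was 7.
Ezh2, chr6:47594981-47595280, minus strand: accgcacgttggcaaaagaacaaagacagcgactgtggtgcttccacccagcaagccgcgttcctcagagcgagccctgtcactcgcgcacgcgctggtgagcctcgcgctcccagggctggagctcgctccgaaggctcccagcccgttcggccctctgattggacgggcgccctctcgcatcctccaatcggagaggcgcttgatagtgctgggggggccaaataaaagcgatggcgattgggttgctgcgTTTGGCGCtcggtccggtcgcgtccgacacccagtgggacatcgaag
Ezh1, chr11:101226414-101226713, minus strand: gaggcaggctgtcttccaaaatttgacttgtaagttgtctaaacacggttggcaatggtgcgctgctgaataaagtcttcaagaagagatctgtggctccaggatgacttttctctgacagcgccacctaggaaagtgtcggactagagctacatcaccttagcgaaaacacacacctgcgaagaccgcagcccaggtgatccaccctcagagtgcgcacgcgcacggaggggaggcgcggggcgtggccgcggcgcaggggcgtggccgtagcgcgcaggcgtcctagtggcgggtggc

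Uhrf1 (chr17:56303321-56323486, plus strand), the partner that brings Dnmt1 to replicated DNA, had the largest scaled difference of the 10 members. It was at 40.3, 51.0 and 29.2 TPM in WT ovaries. Tumor values were 24.3, 94.3 and 224 TPM. It exceeded all WT ovaries in 6 tumors and lay below them in MP tumors 2 and 4. The log2 fold change was 1.03 ± 0.65 on TPM (adjusted P = 0.275) and 1.73 ± 0.45 on scaled TPM (adjusted P = 0.0174, 3.32-fold), with 9 of 10 tumors above all WT ovaries on that scale.

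Dnmt1 (chr9:20907209-20959888, minus strand), the maintenance methyltransferase, was at 68.2, 80.1 and 57.8 TPM in WT ovaries. MP tumors ranged from 16.0 TPM through a median of 81.2 TPM to 190 TPM. The tumors lay on both sides, 5 above and 4 below all WT ovaries, the latter being MP tumors 1 to 4. Neither the log2 fold change on TPM (-0.22 ± 0.68, adjusted P = 0.835) nor that on scaled TPM (0.49 ± 0.45, adjusted P = 0.457) passed the test.

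Among the enzymes of new methylation, Dnmt3b (chr2:153649450-153687730, plus strand) was at 5.24, 5.02 and 4.04 TPM in WT ovaries and at 2.503, 10.3 and 19.8 TPM in tumors. It was above all WT ovaries in 8 tumors and below them in MP tumors 2 and 4. Its log2 fold change was 0.85 ± 0.55 (adjusted P = 0.287) on TPM and 1.43 ± 0.39 (adjusted P = 0.0205) on scaled TPM, where all 10 tumors lay above the WT ovaries.

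Dnmt3a (chr12:3806007-3914443, plus strand) was at 32.8, 25.9 and 21.1 TPM in WT ovaries. In tumors it ran from 1.18 TPM in MP tumor 3 through a median of 14.4 TPM to 34.4 TPM in MP tumor 5. In 7 tumors it was below all WT ovaries and in MP tumor 5 above them. The log2 fold change was -1.27 ± 0.80 (adjusted P = 0.271) on TPM and -0.65 ± 0.53 (adjusted P = 0.401) on scaled TPM.

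E2F-like words also stood in promoters of Uhrf1, Dnmt1 and Suz12, and in none of Eed, Dnmt3a, Dnmt3b, Tet1 and Tet2. Genes with several RefSeq start sites had more than 1 window: Uhrf1 held 1 word in 1 of its 2 windows and Dnmt1 held 2 in 1 of its 3. By comparison, 2.26% of all 32851 promoters held such a word and 3.68% of promoters of tested genes. Among members the E-box stood only in 1 of the 3 windows of Dnmt3a, and it stood in 7.15% of all promoters. These windows of Uhrf1 and Dnmt1, partners in maintenance methylation, are shown with E2F-like words in capitals. A match is a stretch of letters and says nothing of a factor's binding in these samples.
Uhrf1, chr17:56304063-56304362, plus strand: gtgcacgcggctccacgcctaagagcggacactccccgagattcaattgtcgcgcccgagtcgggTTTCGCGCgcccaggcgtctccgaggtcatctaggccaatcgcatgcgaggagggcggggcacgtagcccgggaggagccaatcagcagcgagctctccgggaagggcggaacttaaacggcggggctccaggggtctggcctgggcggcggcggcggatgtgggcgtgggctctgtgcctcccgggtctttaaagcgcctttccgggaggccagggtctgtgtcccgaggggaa
Dnmt1, chr9:20952574-20952873, minus strand: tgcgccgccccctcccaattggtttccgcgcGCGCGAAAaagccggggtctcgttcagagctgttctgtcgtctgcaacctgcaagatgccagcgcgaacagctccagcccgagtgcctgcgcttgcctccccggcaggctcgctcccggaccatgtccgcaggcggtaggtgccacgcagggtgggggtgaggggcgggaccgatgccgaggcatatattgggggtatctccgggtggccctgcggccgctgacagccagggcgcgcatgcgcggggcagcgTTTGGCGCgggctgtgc

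The TET genes were low and no difference passed the test. Tet1 (chr10:62804570-62908996, minus strand) was at 7.36, 6.75 and 4.71 TPM in WT ovaries and at 0.539, 2.64 and 12.1 TPM in tumors, with 8 tumors below all WT ovaries and MP tumors 9 and 10 above. Tet2 (chr3:133463679-133545139, minus strand) was at 7.50, 6.19 and 5.98 TPM in WT ovaries and at 1.12, 4.04 and 19.4 TPM in tumors, with 7 below and 2 above. Log2 fold changes were -0.81 ± 0.56 for Tet1 (adjusted P = 0.318) and -0.56 ± 0.60 for Tet2 (adjusted P = 0.520) on TPM, and -0.27 ± 0.44 and -0.01 ± 0.42 on scaled TPM.

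**Figure D2:**
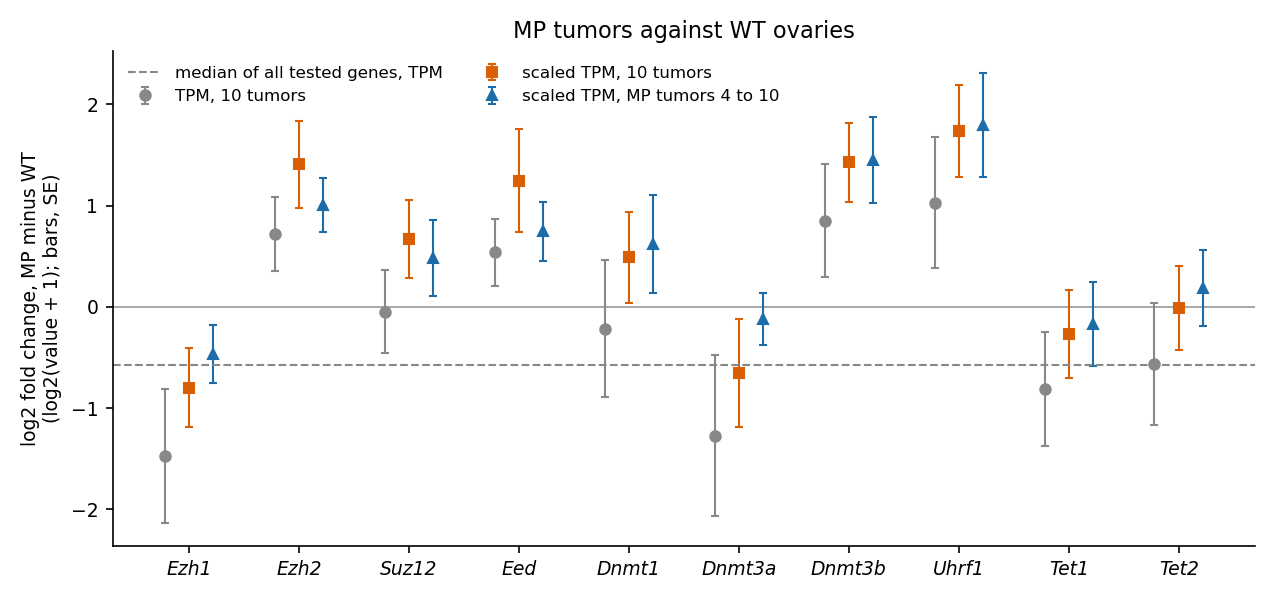
Log2 fold change of each member between MP tumors and WT ovaries, with SE bars, from limma fits of TPM (circles), scaled TPM (squares) and scaled TPM with MP tumors 4 to 10 alone (triangles). The dashed line is the median of all tested genes on TPM, -0.58; Ezh2, Dnmt3b and Uhrf1 lie at 1.41, 1.43 and 1.73 on scaled TPM.

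The 3 calls on scaled TPM held without MP tumors 1 to 3, with log2 fold changes of 1.01 for Ezh2 (adjusted P = 0.0227), 1.45 for Dnmt3b (0.0363) and 1.79 for Uhrf1 (0.0331), where 8.16% of genes were called higher. Without WT ovary 1, 2 or 3 the number of members called higher on scaled TPM was 0, 1 and 0, while all genes called higher dropped from 1291 to 430, 500 and 357. The log2 fold changes were then 1.43, 1.56 and 1.23 for Ezh2, 1.46, 1.46 and 1.36 for Dnmt3b and, for Uhrf1, 1.73 without WT ovary 1 and 1.55 without WT ovary 3, while its call held without WT ovary 2. The Ezh2 call was also lost without MP tumor 1 (1.35, adjusted P = 0.0517) or MP tumor 8 (1.41, adjusted P = 0.0523).

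Ratios of partner genes within a library do not move with the share of TPM that other genes take. Of 7 ratios tested with exact permutation tests over samples (286 arrangements, 2-sided, smallest P 0.0035, adjusted over the 7), 3 differed between groups and did not overlap. The share of other gene pairs whose ratios do so was not computed, so this count has no background. Among single genes on scaled TPM, 9.63% lay wholly higher and 10.6% wholly lower in tumors. Ezh2 to Ezh1 had a log2 ratio of -1.15, -0.82 and -1.77 in WT ovaries and of -0.74, 0.66 and 3.15 in tumors (lowest, median, highest). Ezh1 RNA thus exceeded Ezh2 RNA in all WT ovaries, and Ezh2 exceeded Ezh1 in 7 of 10 tumors. The mean log2 ratio was 2.30 higher in tumors, a 4.93-fold change (exact P = 0.0210, adjusted P = 0.0490). The 4 tumors with the lowest log2 ratios, MP tumors 4, 10, 5 and 6 (-0.74, -0.33, -0.10 and 0.20), had granulosa cell markers that summed to 1539, 940, 872 and 889 TPM, against 5.52 to 104 TPM in the other 6 tumors and 3325 to 6220 TPM in WT ovaries. The part of these markers in the ratio was not tested.

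In the maintenance pair, Dnmt1 to Uhrf1, the log2 ratio was 0.76, 0.65 and 0.98 in WT ovaries and -0.97, -0.44 and -0.14 in tumors. Dnmt1 RNA was the higher of the pair in all WT ovaries and Uhrf1 RNA in all 10 tumors. The mean fell by 1.27 (exact P = 0.0035, the smallest these arrangements can give, adjusted P = 0.0245). The pair of new methylation, Dnmt3b to Dnmt3a, had log2 ratios of -2.62, -2.34 and -2.36 in WT ovaries and of -1.62, -0.04 and 2.22 in tumors, a mean 2.38 higher (exact P = 0.0105, adjusted P = 0.0367). Dnmt3a exceeded Dnmt3b in every WT ovary, and in tumors each was the higher in 5.

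Other ratios among PRC2 subunits did not pass: Suz12 to Eed differed by -0.60 (exact P = 0.231), Ezh2 to Suz12 by 0.79 (exact P = 0.115) and Ezh2 to Eed by 0.19 (exact P = 0.483). Adjusted values were 0.323, 0.202 and 0.483. Tet1 to Tet2 differed by -0.34 (exact P = 0.395, adjusted P = 0.461). Without MP tumor 10, whose Suz12 was the highest, the Suz12 to Eed difference was -0.76 (exact test, adjusted P = 0.0398). The 3 called differences lost their calls with medians in place of means and without MP tumors 1 to 3, where they were 1.55, -1.20 and 1.80 (exact test, adjusted P = 0.0583 each). The Ezh2 to Ezh1 call was also lost without any 1 WT ovary (2.04 to 2.51 over all libraries left out) or MP tumor 1, 2, 6, 7, 8 or 9, that of Dnmt3b to Dnmt3a without any 1 WT ovary or MP tumor 2, 7 or 8 (2.13 to 2.55), and that of Dnmt1 to Uhrf1 without any 1 WT ovary (-1.34 to -1.18). In the Dnmt1 to Uhrf1 fits without a WT ovary or without MP tumors 1 to 3 the exact P was the smallest that 66 or 120 arrangements can give (0.0152 and 0.0083), so these lost calls say nothing of its stability. With each library's trend on gene length removed all 3 calls held (exact test, adjusted P of 0.0408, 0.0122 and 0.0122). Within the shared number the differences were 4.07, -1.43 and 3.72, and 3 against 3 libraries allow no exact P below 0.1.

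**Figure D3:**
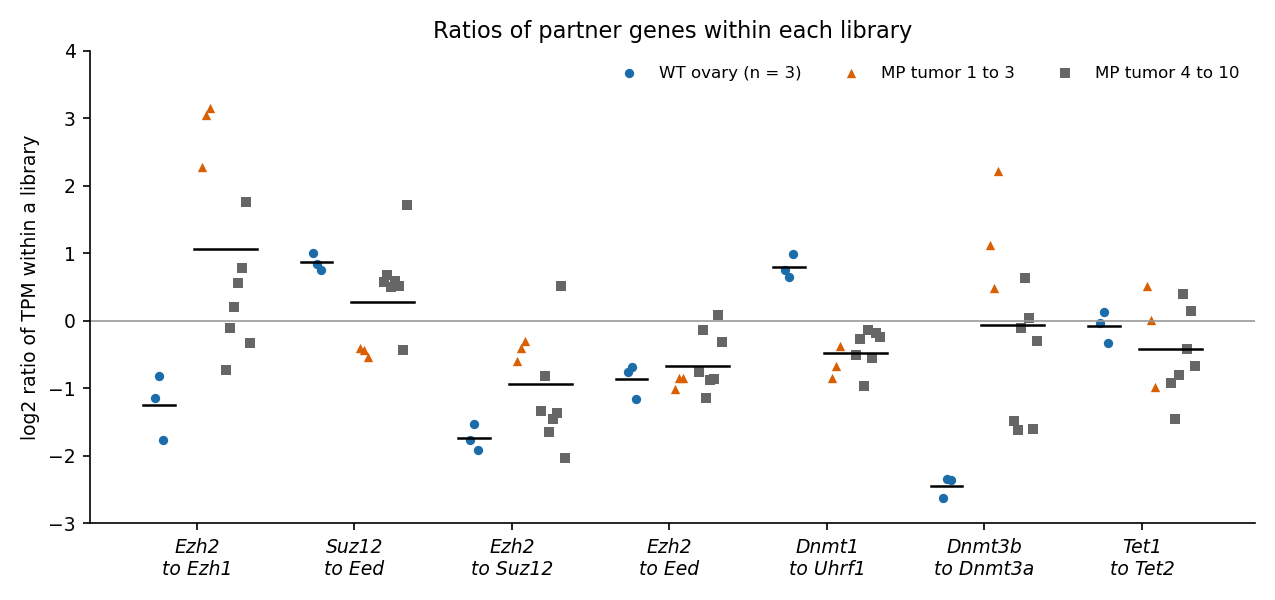
Log2 ratio of TPM between 2 members within each library, for 7 ratios. Circles are WT ovaries, triangles MP tumors 1 to 3, squares MP tumors 4 to 10, and lines group means; tumors and WT ovaries do not overlap for Ezh2 to Ezh1, Dnmt1 to Uhrf1 and Dnmt3b to Dnmt3a.

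Tumors with the shared number differed from the other tumors, and long genes were low in MP tumors 1 to 3. The further numbers were not compared with each other. For each tumor, log2 differences from the WT mean were taken. Their median over genes of at least 6000 bases (4133 genes), less that over all tested genes, was -0.89, -0.70 and -0.79 in MP tumors 1, 2 and 3. It was -0.46 in MP tumor 4 and -0.35 to 0.07 in the other tumors. Members' annotated exon lengths were 3828 to 16870 bases, the longest being Tet2, Dnmt3a and Tet1. The number in a library name is no more than a label, and what it stands for cannot be told apart from the tumors it marks.

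Between MP tumors 1 to 3 and MP tumors 4 to 10, 4 members were lower in the first set on TPM, where 30.1% of genes were, and none was called higher, where 1.29% were. Dnmt3a was at 1.97 ± 0.923 TPM (SD, n = 3) against 20.7 ± 8.74 TPM (n = 7), without overlap (log2 fold change -2.81, adjusted P = 0.000689). Ezh1 was at 4.71 ± 1.76 against 27.2 ± 9.63 TPM (-2.28, adjusted P = 0.00101), also without overlap. The other calls were Dnmt1 (-1.74, adjusted P = 0.0353) and Tet2 (-1.62, adjusted P = 0.0294). Both were lost on scaled TPM (-0.43 and -0.65), with the length trend removed (-0.36 and -0.051) and after quantile normalization (-0.79 and -0.35). They were also lost on leaving out single tumors, that of Dnmt1 without MP tumor 1, 2, 3, 5, 6, 8, 9 or 10 and that of Tet2 without MP tumor 1, 2 or 3. Endothelial markers moved with them. All 4 were lower in MP tumors 1 to 3 (median log2 fold change -2.26), with sums of 4.02 to 13.1 TPM against 19.7 to 177 TPM, while 1 was lower on scaled TPM. Stromal sums were 32.0 to 52.0 TPM against 61.3 to 3369 TPM, and MP tumors 5 and 9, with the highest sums of both lists, also had the highest Dnmt3a. The part of these markers in the result was not tested.

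Ezh2 did not follow them. It was at 33.1 ± 8.24 TPM in MP tumors 1 to 3 and 33.9 ± 12.9 TPM in MP tumors 4 to 10. On scaled TPM, where the median of all genes was -0.04, Ezh2 (1.33, adjusted P = 0.00639) and Eed (1.67, adjusted P = 0.00405) were higher in MP tumors 1 to 3, as 14.1% of genes were, while Ezh1 (-1.11, adjusted P = 0.0204) and Dnmt3a (-1.78, adjusted P = 0.00337) were lower, as 9.69% were. With each library's trend on gene length removed, Ezh2 (1.34) and Eed (1.36) stayed higher (8.71% of genes) and Dnmt3a (-1.24, adjusted P = 0.0116) lower (8.95%), and Ezh1 no longer passed (-0.90, adjusted P = 0.0755). Quantile normalization gave the same calls as the length setting, Ezh2 and Eed higher (9.61% of genes) and Dnmt3a lower (7.97%). Against the 3 WT ovaries alone, MP tumors 1 to 3 had 5 lower members on TPM (Ezh1, Dnmt1, Dnmt3a, Tet1 and Tet2), a comparison in which 57.3% of genes were called lower. On scaled TPM the same libraries had 5 higher members (Ezh2, Suz12, Eed, Dnmt3b and Uhrf1), as 27.3% of genes were, and 2 lower (Ezh1 and Dnmt3a), as 31.5% were.

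Levels per length were ordered differently in the 2 tissues. In WT ovaries the order of mean TPM was Dnmt1 (68.7), Suz12 (64.4), Ezh1 (45.6), Uhrf1 (40.2), Eed (35.1), Dnmt3a (26.6), Ezh2 (19.6), Tet2 (6.56), Tet1 (6.27) and Dnmt3b (4.76). Neighbours that did not differ beyond their spread over the 3 libraries were Dnmt1 and Suz12, Ezh1 and Uhrf1, Uhrf1 and Eed, and Tet2 and Tet1. In MP tumors it ran Uhrf1 (106), Dnmt1 (78.3), Suz12 (68.2), Eed (53.1), Ezh2 (33.7), Ezh1 (20.5), Dnmt3a (15.04), Dnmt3b (11.1), Tet2 (5.51) and Tet1 (3.996). There the steps from Uhrf1 to Dnmt1, Eed to Ezh2 and Dnmt3b to Tet2 exceeded the spread over 10 tumors, and the others did not. This order did not hold in MP tumors 1 to 3, where Eed was the highest member in each library (64.4, 45.7 and 75.1 TPM), mean Dnmt1 (25.7 TPM) was below mean Ezh2 (33.1 TPM), and mean Ezh1 (4.71 TPM) was below mean Dnmt3b (4.99 TPM). Eed is the shortest member (3828 bases), and long genes were low in these tumors. The part of gene length in this order was not tested.

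How much a member varied among tumors differed by gene. On log2(TPM + 1), the SD over 10 tumors was lowest for Eed (0.42) and Ezh2 (0.46), more than 6.80% and 9.49% of tested genes, and highest for Dnmt3a (1.45), more than 86.1%. After scaling, Dnmt3a (0.94) and Eed (0.91) varied most and Dnmt3b least (0.61). For each tumor, the median log2 difference from the WT mean was taken over a member's chromosome, less that over all tested genes. It was lowest at -0.59 for chromosome 12 (Dnmt3a) in MP tumor 10, -0.56 for chromosome 11 (Ezh1 and Suz12) in MP tumor 9 and -0.51 for chromosome 10 (Tet1) in MP tumor 6. Centring each library on these chromosome medians called Ezh2, Dnmt3b and Uhrf1 higher, where 9.08% of genes were.

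Other genes of these pathways were read from 8 lists holding 93 genes, of which 77 were tested, and 5 rose and 10 fell on TPM, beside 2.51% and 14.3% of all tested genes. Of 11 genes that join or regulate PRC2, 1 rose and 3 fell, with a median log2 fold change of -0.26. Within the shared number 1 rose and 8 fell, where 6.44% of all tested genes rose and 57.3% fell. Epop, a PRC2.1 subunit that links the complex to Elongin, averaged 2.49 ± 0.418 TPM (SD) over 3 WT ovaries and was at 2.97, 41.5 and 157 TPM in tumors, above all WT ovaries in each (log2 fold change 3.44, adjusted P = 0.0156), a call lost without any 1 WT ovary. Ezhip, a gonadal inhibitor of PRC2, was at 14.1 ± 4.05 TPM in WT ovaries and had 0 reads in all 10 tumors. Against a floor of 3 reads per library, averaged over tumors, it was at least 27.6-fold lower (floors 0.155 to 1.08 TPM, limma adjusted P = 2.21e-08). Ezhip passed the filter on low values only through the WT ovaries, so its call could only be lower. Its fall went with that of the oocyte markers.

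Phf1, which reads methylated lysine 36 of histone H3, fell from 50.5 ± 2.33 TPM to 1.08, 7.93 and 31.9 TPM (-2.43, adjusted P = 0.0370). It shares 39.3% of its exon bases with Cuta on the opposite strand, and reads of the pair cannot be told apart without strand. Jarid2, the PRC2.2 subunit that helps target the complex, fell from 30.2 ± 2.26 TPM to 1.91, 9.35 and 19.1 TPM (-1.89, adjusted P = 0.0381). Both calls were lost at a pseudocount of 0.1 (adjusted P of 0.0570 and 0.0556) and without any 1 WT ovary, that of Phf1 also with no filter on low values (0.0516) and without MP tumor 1, 6, 7 or 8, and that of Jarid2 without MP tumor 1, 3, 4 or 7.

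No gene of PRC1, the complex that ubiquitinates histone H2A, passed the test on TPM (limma; 23 tested, 1 higher and 3 lower at an unadjusted P under 0.05, and by limma-voom 1 higher and 2 lower). Within the shared number, with the number as covariate and with the replicate block 18 of the 23 were lower on TPM, where 57.3%, 49.4% and 56.7% of all genes were, and 16 were lower in MP tumors 1 to 3 than in MP tumors 4 to 10, where 30.1% of genes were. On scaled TPM 1 rose, Pcgf6 (31.3 ± 5.17 TPM in WT ovaries, 34.1 to 105 TPM in tumors, scaled log2 fold change 1.65, adjusted P = 0.00843), named after its values were seen. None of 5 tested genes that remove lysine 27 methylation or H2A ubiquitin passed either (limma; 1 lower at an unadjusted P under 0.05, and by limma-voom 1 higher). Within the shared number 4 of them were lower, where 57.3% of all genes were. On scaled TPM 1 of them rose, Bap1, an H2A deubiquitinase (0.72, adjusted P = 0.0474), also named after its values were seen.

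Among 13 partners and readers of DNA methylation, 1 rose and 1 fell on TPM. Counts higher and lower were 2 and 1 on scaled TPM, 3 and 1 with the length trend removed, 4 and 2 after quantile normalization, 4 and 3 by limma-voom, and 2 and 7 within the shared number. In the same order, shares of all tested genes were 7.47% and 10.9%, 10.4% and 10.3%, 11.0% and 12.1%, 16.0% and 17.5%, and 6.44% and 57.3%. Hells, a remodeler needed for normal DNA methylation, was at 13.3 ± 3.52 TPM in WT ovaries and at 12.3, 38.5 and 72.0 TPM in tumors, above all WT ovaries in 9 (1.58, adjusted P = 0.0290), a call lost without any 1 WT ovary. Zbtb4, a zinc finger protein that binds methylated CpG, fell from 40.2 ± 5.05 TPM to 0.177, 2.42 and 10.7 TPM, below all WT ovaries in each tumor (-3.64, adjusted P = 0.00154). Dnmt3l, the cofactor of germline methylation, was at 2.46 TPM in WT ovaries and 0.372 TPM at the tumor median, and did not pass (adjusted P = 0.116).

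Of 10 genes of DNA demethylation, 3 fell and none rose on TPM, while 2 rose beside 3 that fell on scaled TPM and by limma-voom, 2 rose and 2 fell with the length trend removed, and 1 rose and 6 fell within the shared number. Shares of all tested genes that rose and fell were 2.51% and 14.3% on TPM, 7.47% and 10.9% on scaled TPM and 16.0% and 17.5% by limma-voom. They were 10.4% and 10.3% with the length trend removed and 6.44% and 57.3% within the shared number. Idh1, which makes the 2-oxoglutarate that TET enzymes use and also NADPH for lipid and steroid synthesis, fell from 2678 ± 124 TPM to 97.6, 188 and 813 TPM (-3.48, adjusted P = 0.000408), beside theca and luteal markers that summed to 25024 to 28130 TPM in WT ovaries and 7.44 to 824 TPM in tumors. Cxxc4, a regulator of Tet2 protein, fell from 9.68 ± 3.46 TPM to 0.0616, 1.53 and 3.50 TPM (-2.20, adjusted P = 0.00776), a call lost with the length trend removed (-1.11, adjusted P = 0.0674) and without WT ovary 1 (adjusted P = 0.0641). D2hgdh, which clears D-2-hydroxyglutarate, fell from 43.2 ± 10.6 TPM to 2.19, 11.5 and 25.8 TPM (-1.98, adjusted P = 0.0364). Tet3, the remaining TET gene, was at 17.5 TPM in WT ovaries and 10.5 TPM at the tumor median and did not pass (adjusted P = 0.472). In the methyl donor pathway 1 of 3 genes rose, Ahcy, which clears S-adenosylhomocysteine, from 41.7 ± 5.50 TPM to 54.9, 116 and 226 TPM (1.45, adjusted P = 0.0262). The calls of D2hgdh and Ahcy were lost without any 1 WT ovary, that of D2hgdh also at a pseudocount of 0.1 (adjusted P = 0.0532) and without MP tumor 1, 7 or 8.

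**Figure D4:**
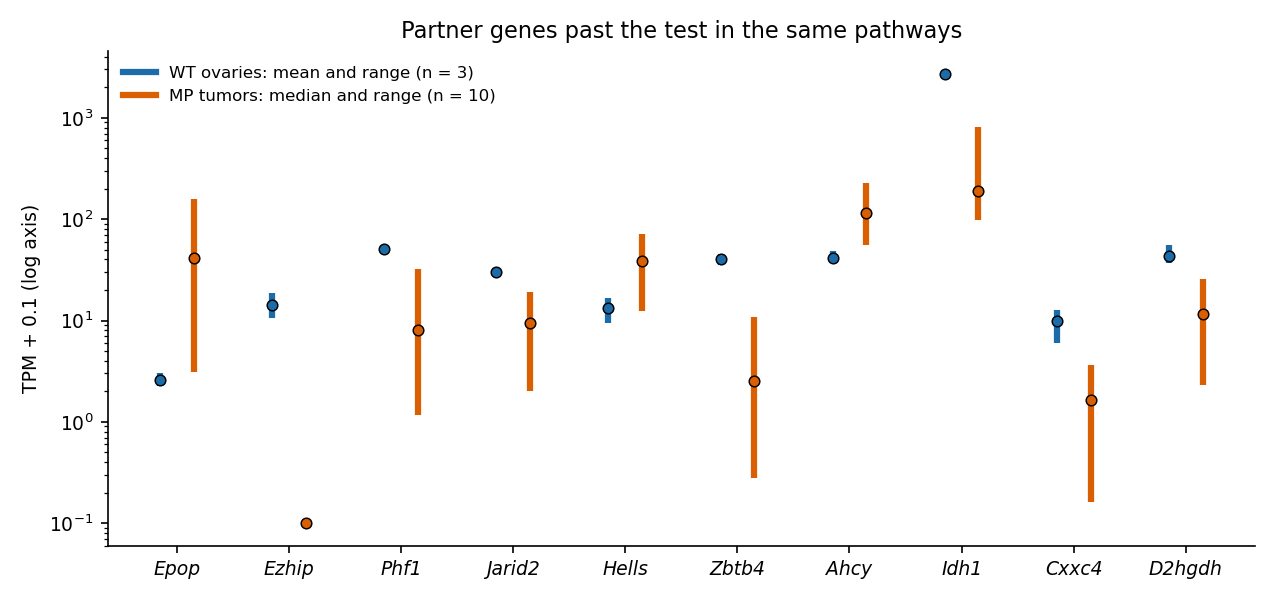
TPM + 0.1 on a log axis for 10 genes of the PRC2, DNA methylation, demethylation and methyl donor lists that passed the test. Blue marks the mean and range of 3 WT ovaries and orange the median and range of 10 MP tumors; Epop, Hells and Ahcy rose, the other 7 fell, and Ezhip had 0 reads in every tumor.

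Known Polycomb-repressed genes and germline genes rely on these marks for silencing in somatic cells. Of 13 Polycomb-repressed genes 4 were tested, 1 rose (Cdkn2a) and 1 fell (Cdkn2b), and of 14 germline genes 8 were tested, 1 rose (Tdrkh) and 2 fell (Mael and Slc25a31). Of all tested genes 2.51% rose and 14.3% fell. In at least 5 tumors 8 of the 13 Polycomb-repressed genes and 8 of the 14 germline genes were listed at 0. The counts of tested genes therefore do not read out silencing. Mael and Slc25a31 passed the filter on low values only through the WT ovaries.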

How the data were processed

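Samples were grouped by the labels' titles into 3 WT ovaries and 10 MP tumors. The deposited values are TPM per gene. Per the labels, the authors used FastQC 0.11.5, Trimmomatic 0.36, STAR 2.5.3a and featureCounts 1.6.3 on GRCm38, and the labels' protocol also names a human build, HTSeq and RPKM, which do not match this mouse table. Strand setting and multimapped reads are not given in the sources used here. TPM times gene length gave whole reads for 100% of values (tolerance 0.001). Member positions matched GENCODE M21.

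The 17277 genes that reached 1 TPM in 3 or more libraries were fitted with limma 3.58.1 (R 4.3.3, trend and robust) on log2(TPM + 1), without covariates, and Benjamini-Hochberg adjusted over all of them at a threshold of 0.05. Fold changes on this scale understate those of low genes. Ratios used log2(TPM + 0.1) and exact permutation tests (Python 3.11.15, numpy 2.4.6). Both were tested on simulated data. Members and lists were chosen with earlier results of these data known. Named were all members, Trp53, up to 3 genes per list and direction past the threshold by moderated statistic, and the 3 genes most like Ezh2 and Ezh1. Dnmt3l, Tet3, Pcgf6 and Bap1 fall outside this rule and were named after their values were seen. The labels do not say that samples came from separate animals, so P-values measure the spread between these libraries. Every pair of libraries within a group differed by more than sampling noise. Reads had no molecular identifiers, so floors cover counting error only.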

Additional observations from a re-analysis of the deposited data

Results flagged for a closer look

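Over the 10 members and 7 ratios, 17 sets of 10 tumor values were checked for a single value far from the others. In 1 set, Tet2 on TPM, MP tumor 10 at 19.4 TPM stood apart, its gap to the next tumor taking 0.627 of the whole range. Chance alone puts about 1 in 20 such sets past this limit.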

How the results depend on the processing

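The number of members called higher, 0 on TPM, was 3 after median-of-ratios scaling, quantile normalization, removal of the length trend or chromosome centring and 4 with limma-voom, and those called lower, 0 on TPM, were 5 within the shared number, 4 with the number as covariate (49.4% of genes lower) and 5 with the replicate block (56.7% of genes lower), although WT and MP replicate numbers did not pair samples (correlations of deviations -0.05, 0.02 and -0.04). On scaled TPM the count called higher was 0 to 3 leaving out 1 library and 5 within the shared number, where 2 were lower. Pathway genes called higher, 5 on TPM, were 11, 11, 12, 13 and 9 after scaling, quantile, length, voom and chromosome settings, 8 with the covariate, 9 without MP tumors 1 to 3 and 2 to 9 leaving out 1 library (2 without any 1 WT ovary, 9 without MP tumor 2, 8 without MP tumor 5). Those called lower, 10 on TPM, were 49, 48 and 48 within the shared number, with the covariate and with the block, and 6 to 12 leaving out 1 library (6 without WT ovary 1). Over all tested genes 14.3% were lower on TPM and 57.3%, 49.4% and 56.7% in those fits. Shares higher were 2.51% on TPM and 7.47%, 11.0%, 10.4%, 16.0% and 9.08% after scaling, quantile, length, voom and chromosome settings. They were 5.17% with the covariate and 4.68% without MP tumors 1 to 3.

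Some directions reversed, given here as log2 fold changes. Suz12 became 0.67, 0.38, 0.71, 0.68 and 0.60 under scaling, quantile, length, voom and chromosome settings, 0.16 without MP tumors 1 to 3 and -0.18 to 0.049 leaving out 1 library. Dnmt1 became 0.49, 0.28, 0.67, 0.51 and 0.38 under the same settings and 0.30 without MP tumors 1 to 3. Dnmt3b was -0.016 and Uhrf1 -0.040 within the shared number, with the covariate and with the block. Tet1 was 0.094 and 0.31, and Tet2 0.34 and 0.58, under quantile and length settings, and scaled Tet2 was 0.19 without MP tumors 1 to 3 and -0.17 to 0.10 leaving out 1 library. The causes were not tested.

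Between tumor sets, 2 members were higher under scaling, quantile and length settings and 2, 1 and 1 lower, with 2 to 6 lower leaving out 1 tumor (2 without MP tumor 1, 2 or 3). Suz12 turned to 0.63, 0.17 and 0.48, Dnmt3b to 0.20 (quantile), Tet1 to 0.33 (length), and Ezh2 ranged from -0.16 to 0.19 leaving out 1 tumor. For the Ezh2 to Ezh1, Dnmt1 to Uhrf1 and Dnmt3b to Dnmt3a ratios, calls were lost at 1.81, -1.20 and 2.32 with medians, 1.545, -1.20 and 1.80 without MP tumors 1 to 3, and 4.07, -1.43 and 3.72 within the shared number, where no exact P could pass. Leaving out 1 library gave 2.04 to 2.51, -1.34 to -1.18 and 2.13 to 2.55. Ezh2 to Eed turned to -0.033 within the shared number and -0.090 with medians, and Suz12 to Eed ranged from -0.76 to -0.51. None of the 18 other named genes changed sign in any alternative run, and of their values leaving out 1 library 195 kept the call and 39 lost it, against 205 and 9 in the other alternatives, among them Ahcy under the replicate block (adjusted P = 0.0538). Over all tested genes, 433 were higher and 2463 lower on TPM, 1291 and 1888 on scaled TPM, 2760 and 3018 by limma-voom, and 94 to 635 and 1158 to 3264 leaving out 1 library.

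The fits without MP tumors 1 to 3, the scaled fits with libraries left out and the length setting for ratios were chosen after seeing the data. Every comparison with WT is limited by 3 WT ovaries.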

Other observations

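Several genes outside the enzymes moved with the tumors. Cdkn2a, a classic Polycomb target that encodes p16 and Arf, averaged 3.38 ± 0.713 TPM (SD) over 3 WT ovaries and reached 124, 423 and 914 TPM (lowest, median, highest) across tumors, with a limma log2 fold change of 6.55 and adjusted P = 2.71e-07. Its neighbour Cdkn2b, which encodes p15, went from 132 ± 75.7 TPM to 1.02, 5.99 and 18.2 TPM, a fall of all 10 tumors below all WT ovaries (-4.20, adjusted P = 0.000382). Tdrkh, a Tudor protein of the piRNA pathway, rose from 2.40 ± 0.206 TPM to 6.01, 16.5 and 62.1 TPM (2.56, adjusted P = 0.00579), and it shares 36.7% of its exon bases with Oaz3 on the opposite strand. Mael, another piRNA gene, was at 1.57 ± 0.140 TPM in WT ovaries and had 0 reads in all 10 tumors. Against a floor of 3 reads per library, averaged over tumors, that was at least 2.43-fold lower (floors 0.197 to 1.37 TPM). Its limma call (adjusted P = 3.36e-05) was lost when chromosome medians were centred (-0.77, adjusted P = 0.0873). Slc25a31, a germline ADP/ATP carrier, was at 1.42 ± 0.295 TPM in WT ovaries and at most 0.307 TPM in tumors (-1.20, adjusted P = 0.000362), a call lost with the length trend removed (-0.73, adjusted P = 0.0606) and with chromosome medians centred (-0.77, adjusted P = 0.0733). Mael and Slc25a31 passed the filter on low values only through the WT ovaries, so their calls could only be lower. Summed oocyte markers were 308 to 458 TPM in WT ovaries and 1.38 to 22.8 TPM in tumors, and their part in these values was not tested.

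Over the 10 tumors and 9457 genes with a mean TPM of at least 10, scaled Ezh2 levels ran most closely with 4930503L19Rik (Pearson r = 0.965), 2810002D19Rik (0.963) and AC160980.1 (0.962), and Ezh1 with Mta3 (0.958), Osr2 (0.954) and Tmem106c (0.948). These are descriptions over 10 tumors whose libraries differ in depth (3892690 to 19906507 reads) and split by library-name number.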
